A study of Mus musculus with 12 samples.

Results

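miR-342 is a mouse microRNA that is cut from a single hairpin as a pair of mature strands, mmu-miR-342-3p and mmu-miR-342-5p, and both were followed through 5 days of osteoclast formation. These 2 miRNAs were taken by name from the 696 mouse miRNAs on the array. They were chosen on their own signal over the 3 time points, as a miRNA that rises after day 3, so the levels and changes of both arms are a description here and carry no test. Of the 696 miRNAs, 334 were detected on at least 1 array, and both arms are among them.

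The cells came from the long bone marrow of C57BL/6 male mice, 6 to 8 weeks old. B220/CD45R+ and CD3+ lymphocytes were removed by magnetic sorting, and the remaining osteoclast precursors were cultured with M-CSF and RANKL, each at 30 ng/ml. Total RNA was taken at day 1, day 3, or day 5, from 4 independent cultures per time point, and each of the 12 RNAs was hybridized to its own single-color miRNA array. All groups received both cytokines, so day 1 is an early time point of the same treatment and not an untreated control. The cultures are mixed bone marrow cells, and a change in bulk RNA cannot tell a change in the number of cells of a type from a change in the RNA per cell.

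A miRNA hairpin can give rise to a mature strand from each of its sides, and the strand loaded into an Argonaute protein guides it to messenger RNAs that pair with the seed, bases 2 to 8. The gene Mir342 lies in an intron of Evl, which encodes an actin regulator of the Ena/VASP family. In blood cells miR-342 is best known in the myeloid lineage, where the transcription factor PU.1 has been tied to its expression during macrophage development, and the 5p arm has been studied in inflammatory macrophages. Osteoclasts form by fusion of such monocyte and macrophage precursors under M-CSF and RANKL.

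The mature sequences of both arms, as listed by RefSeq for GRCm38.p6, are shown here because the results follow these 2 strands, with the seed of each in capitals. The 3p arm lies on the plus strand at chr12:108658680-108658702 and the 5p arm at chr12:108658638-108658659.
mmu-miR-342-3p: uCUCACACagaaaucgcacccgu
mmu-miR-342-5p: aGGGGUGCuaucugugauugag
None of the other entries among 1679 mature mouse miRNAs in the RefSeq table has the seed of either arm. Of the 696 array miRNAs, 558 could be matched to an entry of that table. The hairpin spans chr12:108658620-108658718 and is printed with both arms in capitals, since it shows that the 5p arm occupies positions 19 to 40 and the 3p arm positions 61 to 83.
Mir342: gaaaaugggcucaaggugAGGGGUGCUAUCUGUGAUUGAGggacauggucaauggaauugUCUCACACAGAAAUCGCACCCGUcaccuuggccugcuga
The RefSeq table places Evl at chromosome 12, 108554681 to 108688516, on the same strand, with the hairpin 103939 bases downstream of the start of the gene. The table lists no exons, and the place of the hairpin in an intron is given as background only.

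The array reads the arms with short DNA probes that pair with the 3′ part of each strand, and these are shown because they did not all respond alike. Capitals mark the bases that each longer probe adds to the shortest one of its arm.
3p, 16 bases: acgggtgcgatttctg
3p, 17 bases: acgggtgcgatttctgT
5p, 16 bases: ctcaatcacagatagc
5p, 17 bases: ctcaatcacagatagcA
5p, 18 bases: ctcaatcacagatagcAC
5p, 19 bases: ctcaatcacagatagcACC
The 3p probes cover bases 7 or 8 to 23 of the mature strand and are printed at 10 spots each per array. The 5p probes reach from base 7, 6, 5, or 4 to base 22 and are printed at 5 spots each. Every arm thus has 20 spots per array. The probes differ between the arms, so the signal of one arm is not a measure of its level relative to the other.

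The layout of the arrays sets what the time course can show. Slide 1 carried the arrays of days 1 and 5, and slide 2 those of day 3, with a scan for each slide. A difference between day 3 and either other day cannot be told apart from a difference between the slides, whereas day 5 and day 1 were compared within slide 1. The arrays of day 3 were also dimmer. They detected 211 to 226 miRNAs each, against 233 to 276 at day 1 and 186 to 269 at day 5, and their mean summed signal was 58.4% of that of day 1, with 80.3% for day 5. Replicate 4 of day 5 detected the fewest, 186. Signals of the detected miRNAs were therefore quantile normalized and are given on a log2 scale beside the signals as scanned.

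mmu-miR-342-3p was detected on all 12 arrays and was lowest at day 3 and highest at day 5. Its total signal as scanned, in intensity units, was 6453, 5731, 6294, and 3671 on the arrays of day 1. It was 2282, 2028, 1951, and 2151 at day 3. At day 5 it reached 12048, 10134, 10233, and 10099. The groups did not overlap in any pair of days, although replicate 4 of day 1 lay well below the other arrays of its day. The scanner software gave an error of 7.11% to 7.39% of the signal on every array, and no spot of this arm was saturated. It flagged 48 of 240 spots of this arm as outliers, against 2 of 240 for the 5p arm. At day 5 these were 17 of 40 spots of the 16-base probe and 16 of 40 of the 17-base probe. At day 3 it was 1 of 40 for each, and at day 1 it was 6 and 7. With probe means of processed spot signals, flagged spots left out, in place of the total signal, the normalized difference between days 5 and 3 was 1.77 (log2). That setting changed the signal used as well as the spots, so it does not isolate the effect of the flags.

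On the normalized log2 scale the 3p arm averaged 12.05 ± 0.22 on day 1 and 11.62 ± 0.09 on day 3, against 13.26 ± 0.18 on day 5 (SD over n = 4 arrays each). The values of the single arrays were 12.03, 12.22, 12.22, and 11.74 at day 1, 11.52, 11.67, 11.57, and 11.71 at day 3, and 13.28, 13.49, 13.06, and 13.22 at day 5. The groups were again apart in every pair, but the margin between days 1 and 3 was only 0.03 on the log2 scale, from the lowest array of day 1 to the highest of day 3. The difference from day 3 to day 5 was 1.65 (SE 0.13), a 3.13-fold higher level at day 5. Day 5 was above day 1 by 1.21 (SE 0.13), or 2.32-fold, and this pair lies on a single slide.

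The step from day 1 to day 3 in the 3p arm depended on the scaling more than the later rise. The normalized difference was -0.43 (SE 0.13), while without normalization it was -1.36, where the median of all 334 miRNAs also stood at -0.77. From day 3 to day 5 the value without normalization was 2.34, with a median of 0.36 over all miRNAs. The deposited log2 values of the authors gave means of 11.93 ± 0.30, 11.37 ± 0.10, and 13.12 ± 0.16 (SD, n = 4 each) at days 1, 3, and 5.

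**Figure D1:**
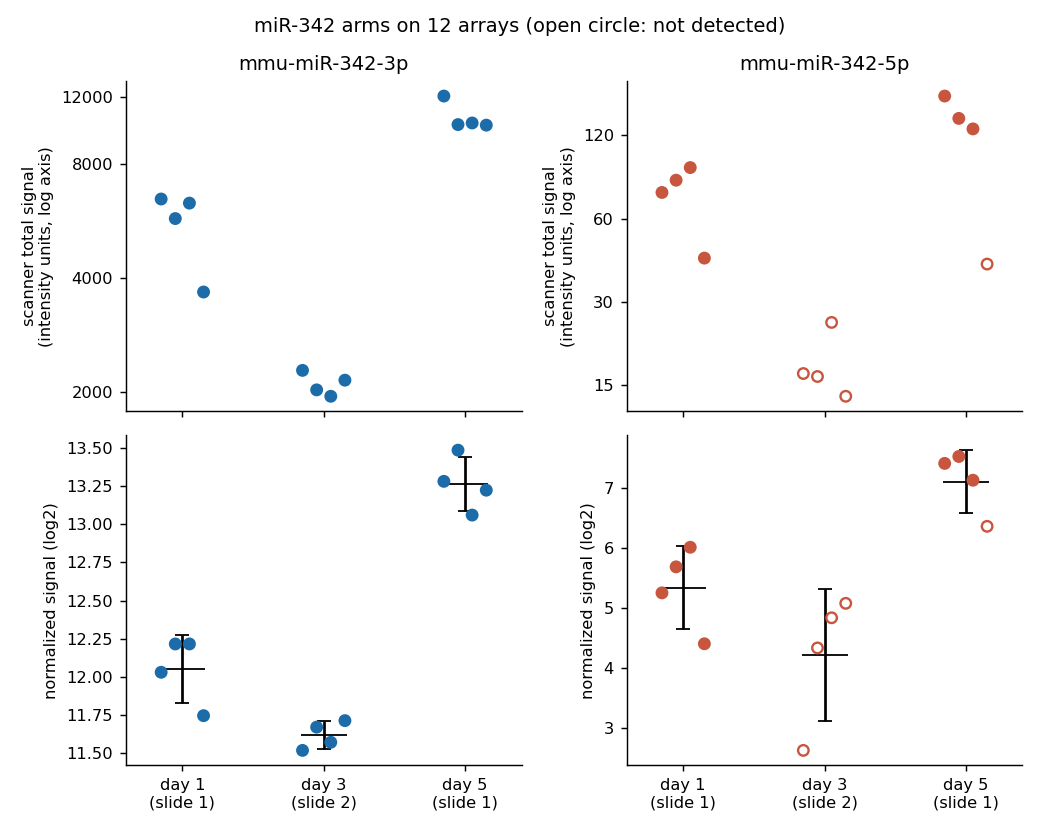
Total signal as scanned (upper row, intensity units, log axis) and normalized signal (lower row, log2) of both arms on the 4 arrays of each day, with the mean and SD as black bars and open circles where the arm was not detected. The 3p arm lies between 1951 and 2282 at day 3 and between 10099 and 12048 at day 5, whereas the 5p arm lies between 13.7 and 166 on all arrays and has open circles on every array of day 3.

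mmu-miR-342-5p gave a signal near the limit of the array and was detected on 7 of 12 arrays. Its total signal as scanned was 74.5, 82.6, 91.7, and 43.2 intensity units at day 1, where it was detected on 4 of 4 arrays. At day 3 it was 16.5, 16.1, 25.3, and 13.7, and it was not detected on any of the 4 arrays. At day 5 it was 166, 138, 127, and 41.1, and it was detected on 3 of 4 arrays. The arm was thus lowest at day 3 and highest on the 3 arrays of day 5 that detected it, the same order as the 3p arm. The array without detection at day 5 was replicate 4, and its signal was below every array of day 1. The error given by the software was 21.3% to 51.1% of the signal at day 1 and 76.5% to 216% at day 3, and it was 148% on replicate 4 of day 5.

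Normalized values of the 5p arm are less certain than its detection. They were 5.25, 5.68, 6.01, and 4.40 on the log2 scale at day 1, 2.63, 4.33, 4.83, and 5.08 at day 3, and 7.40, 7.52, 7.12, and 6.36 at day 5, with means of 5.34 ± 0.69, 4.22 ± 1.10, and 7.10 ± 0.52 (SD, n = 4 each). Replicate 4 of day 3 had the lowest scanned signal of its day and the highest normalized value. Days 5 and 3 did not overlap before or after normalization but overlapped when arrays were scaled by their 75th percentile. Days 3 and 1 overlapped after normalization, and days 5 and 1 overlapped without it.

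Because no array of day 3 detected the 5p arm, its changes to and from that day are given against an approximate bound. The bound on each array of day 3 is set by the dimmest miRNA still detected on it, or by the arm's own value where that was higher. It is not a strict upper limit. On replicate 3 of day 3 the dimmest detected miRNA was at 3.74, while the undetected arm was at 4.83. On quantile normalized values the mean of all 4 arrays of day 5 was 3.85-fold above the mean of these bounds. The mean of day 1 was 1.13-fold above it. The day 5 mean includes replicate 4, which did not detect the arm. These ratios hold on that scale only. The first is 1.94 on the log2 scale, whereas the measured difference was 1.85 under 75th percentile scaling and 0.41 with normexp background correction, and with normexp days 3 and 1 differed by -0.0054. Without replicate 4 of day 5 the first ratio was 4.57-fold. When the 5th percentile of detected miRNAs replaced the dimmest one, neither day over all 4 arrays stood above the bound. The measured difference between days 5 and 1 was 1.76 (SE 0.55) on the log2 scale. In the values deposited by the authors, the 5p arm had log2 values of 1.37, -2.23, 0.12, and 0.10 at day 1 and 5.64, 5.71, and 5.42 on 3 arrays of day 5, with empty cells on the other 5 arrays. These deposited means, -0.16 ± 1.50 (SD, n = 4) and 5.59 ± 0.15 (SD, n = 3), are much farther apart than the scanned signals, whose means of 73.0 and 118 units at days 1 and 5 differ 1.62-fold.

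The probes of the 3p arm changed alike. The 16-base probe gave 2576 ± 548, 963 ± 77.3, and 4948 ± 368 intensity units at days 1, 3, and 5 (mean and SD of 4 arrays). The 17-base probe gave 2961 ± 735, 1140 ± 69.8, and 5681 ± 583. Day 5 exceeded day 3 by 5.14-fold and 4.98-fold in the signals as scanned, and day 1 by 1.92-fold with either probe. Both probes kept the 3 days apart without overlap, at signals 19.6 to 125 times the local background.

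The probes of the 5p arm split by length. The 19-base probe gave 57.8 ± 8.17 units at day 1, 21.2 ± 5.49 at day 3, and 98.0 ± 13.8 at day 5, and its days did not overlap. On replicate 4 of day 5 it read 82.3 units, with an error of 31.3, above every day 1 array, of which the highest read 65.2. The 18-base probe gave 26.7 ± 6.51, 4.78 ± 4.17, and 33.3 ± 17.2 units, and read 9.46 on that array. The 17-base probe was at or below 0 after background subtraction on 8 of 12 arrays and the 16-base probe on 11 of 12, down to -28.1. The total for the arm adds all 4 probes, so the low total of replicate 4 at day 5 includes negative terms from the short probes. The means of the 18-base and 19-base probes thus had the same order of days as the 3p arm, lowest at day 3 and highest at day 5.

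**Figure D2:**
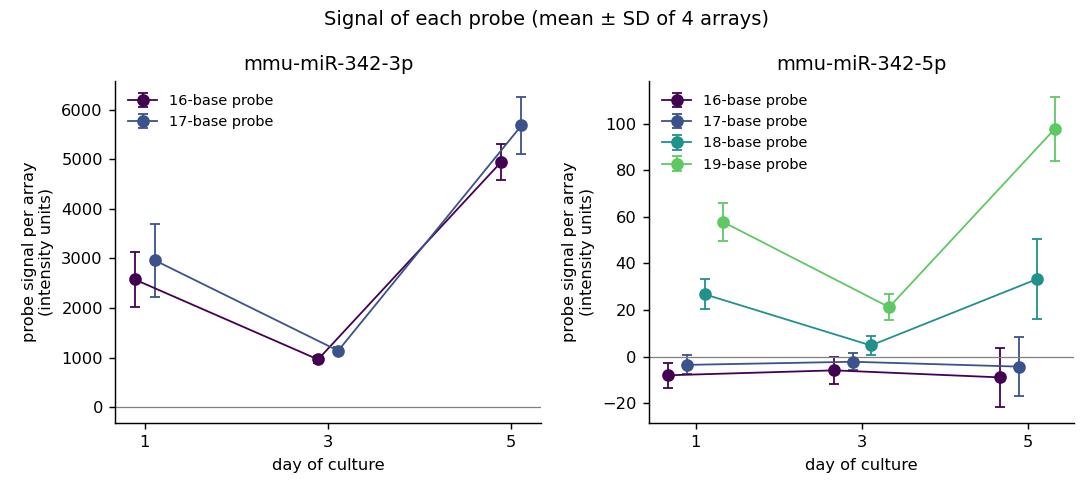
Signal of each probe of the 3p arm (left) and of the 5p arm (right) at days 1, 3, and 5, in intensity units after background subtraction, as the mean and SD of 4 arrays. Both 3p probes move together, while of the 5p probes the 19-base probe moves from 57.8 to 21.2 to 98.0 and the 16-base and 17-base probes stay around 0.

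The relation between the arms could be followed only on arrays that detected both, which leaves days 1 and 5. In the signals as scanned, log2 of the 3p signal minus log2 of the 5p signal was 6.27 ± 0.18 (SD, n = 4) on day 1, and on day 5 it was 6.24 ± 0.09 (SD, n = 3), a gap smaller than the spread of day 1. After normalization the values were 6.72 ± 0.48 and 5.93 ± 0.05. The arrays that detected both arms did not overlap on that scale, with 6.21 as the lowest value of day 1 and 5.97 as the highest of day 5. Replicate 4 of day 5, which did not detect the 5p arm, had 6.87 normalized and 7.94 as scanned. The normalized value lay within the range of day 1, which reached 7.34. A lower value at day 5 was therefore seen only on the normalized scale and only on the arrays that detected both arms.

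Other hairpins with both arms on the array give a frame for this pair. Of 159 such pairs, 51 had both arms detected on at least 1 array, and in 40 of these the arms changed in the same direction from day 3 to day 5. In 3 pairs both arms rose by more than 1 on the log2 scale, namely miR-342, miR-199a with 2.13 and 2.09, and miR-501 with 2.08 and 2.16, the last 2 named after their values were seen. The 3p and 5p arms of miR-501 were detected on only 9 and 3 of 12 arrays, and those of miR-199a on 12 and 11. The median gap between the changes of the arms was 0.44 over the 51 pairs. The gap of miR-342 was 1.23, of which the 5p value rests on day 3 arrays that did not detect it. Among the 16 pairs detected on all 12 arrays, the gap ran from 0.09 in miR-362 to 1.18 in miR-1897. Small gaps were also seen in miR-130b (0.14) and miR-22 (0.22) and wider ones in miR-1839 (0.45) and miR-139 (0.58).

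Among all miRNAs the late rise of the 3p arm was large for a miRNA with a signal on every array. A miRNA was called changed when limma gave an adjusted p under 0.01 (Benjamini-Hochberg over the 334 miRNAs) and the means differed more than 2-fold. From day 3 to day 5, 5.99% of the miRNAs were called higher and 4.49% lower. From day 1 to day 3 the shares were 15.6% higher and 19.5% lower, and from day 1 to day 5 they were 24.3% and 22.5%. Of the 148 miRNAs detected on all 12 arrays, only miR-199a-3p had a larger difference between days 5 and 3 than the 3p arm, 2.13 against 1.65, with a median of 0.05. Among all 334, 23 had a larger difference. For day 5 against day 1, 82 of 334 miRNAs had a larger difference, so the change over the whole culture was less unusual than its last step.

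The order of all 3 days combines the single steps. Day 5 lay above day 3 without overlap in 22.5% of the 334 miRNAs, day 3 lay below day 1 in 29.6%, and day 5 lay above day 1 in 32.6%. The 3p arm was the only miRNA, 0.299%, with every array of day 3 below every array of day 1 and these below every array of day 5. This holds for quantile normalized values. With scaling to the 75th percentile miR-146a had the same order too, without normalization 7 of 334 miRNAs had it, and 2 of 148 had it in the deposited values, the other being let-7i. The 3p arm was among them on each of these 4 scales. Since the members were chosen on this pattern, its rarity is a description of them.

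**Figure D3:**
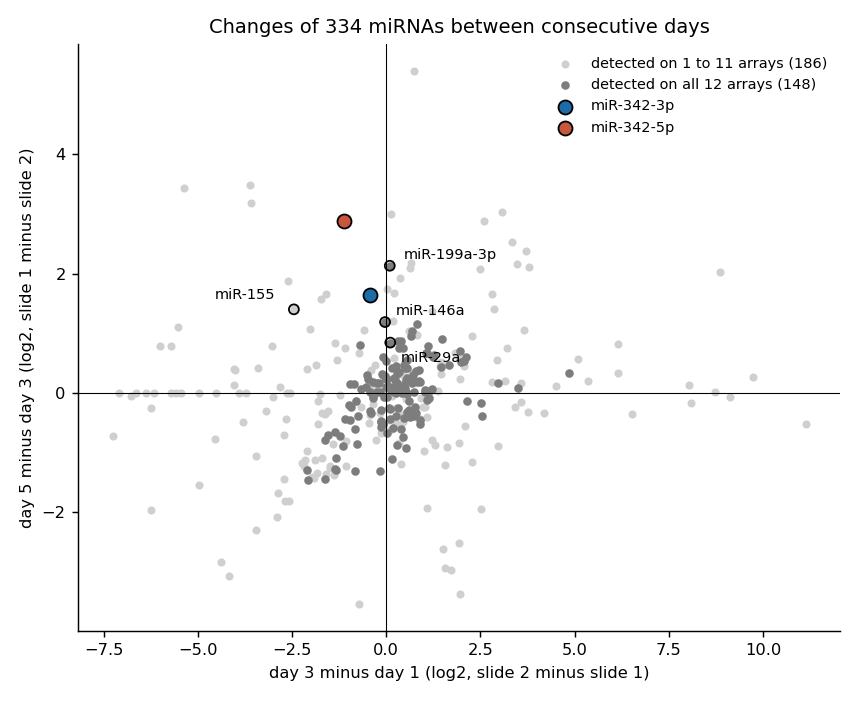
Difference between days 3 and 1 (horizontal, log2) against the difference between days 5 and 3 (vertical, log2) for 334 miRNAs, with the 148 detected on all 12 arrays in dark grey, both arms of miR-342 as large points, and 4 miRNAs named in the text as open circles. The 3p arm lies at -0.43 and 1.65, above all dark points except miR-199a-3p at 0.09 and 2.13.

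The miRNAs with a time course most like that of the 3p arm were sought among the 147 others detected on all 12 arrays, by the root mean square difference of log2 values after each miRNA was centered on its own mean. The 5 nearest were miR-29a (0.37), miR-146a (0.40), miR-532-5p (0.40), miR-30a (0.44), and miR-199a-3p (0.45), against a median of 0.80. On this scale their differences between days 3 and 1 were 0.11, -0.03, 0.32, 0.40, and 0.09, and between days 5 and 3 they were 0.84, 1.19, 0.87, 0.87, and 2.13. Under 75th percentile scaling miR-146a was nearest (0.27), with a difference of -0.33 between days 3 and 1, and 4 of the 5 stayed, with miR-29c in place of miR-30a. Without normalization miR-146a and miR-30a were among 7 of 334 miRNAs, the 3p arm included, with day 3 lowest and day 5 highest without overlap. On that scale the median difference between days 3 and 1 over all miRNAs was -0.77.

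The miRNAs that have been tied to PU.1 in macrophage development together with miR-342 split over the time course. From day 3 to day 5, 2 of the 4 were called higher, against 5.99% of all miRNAs, and none lower, with a median of 0.97 against 0.00 over all miRNAs. From day 1 to day 3, none was called higher and 2 lower, against 19.5% of all miRNAs called lower, with a median of -0.57 against 0.18. From day 1 to day 5, 1 was called in each direction, against 24.3% higher and 22.5% lower over all, with a median of 0.20 against 0.11.

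miR-146a, which restrains signaling to NF-κB, came closest to the 3p arm within this list. It had means of 11.75 ± 0.17, 11.72 ± 0.06, and 12.90 ± 0.46 (SD, n = 4 each) on the log2 scale for days 1, 3, and 5. It rose by 1.19 from day 3 to day 5 (limma adjusted p = 0.00092) and by 1.16 from day 1 (limma adjusted p = 0.00034), the latter 0.89 under 75th percentile scaling. Its difference between days 3 and 1 depended on the scale, with -0.03 (limma adjusted p = 0.91) after quantile normalization and -0.33 under 75th percentile scaling, where every array of day 3 lay below every array of day 1.

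miR-155, an inflammatory miRNA of activated macrophages, also had its lowest level at day 3 but did not regain that of day 1. Detection was found on all 4 arrays of day 1, on none of day 3, and on 3 of day 5, with means of 7.92, 5.47, and 6.88. Measured differences were -2.45 between days 3 and 1 (limma adjusted p = 1.2e-05) and 1.40 between days 5 and 3 (limma adjusted p = 0.0015). Against the approximate bound used for the 5p arm, day 1 stood 4.55-fold and day 5 2.20-fold above day 3. Both ratios hold on quantile normalized values, and the p-values do not test them. With the 5th percentile the first was 1.65-fold, and day 5 did not stand above the bound. Under 75th percentile scaling the measured difference between days 5 and 3 was 0.54. At day 5 it was below day 1 by 1.05 (limma adjusted p = 0.0037).

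The arms of miR-338, a miRNA from an intron of Aatk, parted from each other. miR-338-3p fell by 1.10 at day 3 (limma adjusted p = 0.0014) and differed by 0.75 from day 3 to day 5 (limma adjusted p = 0.022), which missed the threshold. miR-338-5p was higher at day 3 than at day 1 by 0.74 (limma adjusted p = 0.0098), under the 2-fold limit, and by 0.46 under 75th percentile scaling. It differed by 0.01 from day 3 to day 5, and by -0.63 under that scaling. At day 5 it stood 0.75 above day 1 (limma adjusted p = 0.0080), under the 2-fold limit, and 0.17 below day 1 under that scaling, a change of sign.

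General myeloid miRNAs were not called at the 2-fold limit. None of miR-223, miR-142-3p, miR-142-5p, miR-21, and miR-146b was called in either direction in any pair of days, and their median difference between days 5 and 3 was 0.10 against 0.00 over all miRNAs. With 5.99% of all miRNAs called higher and 4.49% lower in that step, 0 of 5 says little about the list. All 5 were detected on all 12 arrays. miR-142-3p, which marks blood cells, differed by 0.42 from day 3 to day 5 (limma adjusted p = 0.15), and miR-146b by 0.15 (limma adjusted p = 0.55). At day 3 miR-146b was below day 1 by 0.86 (limma adjusted p = 0.00053), and by 1.01 under 75th percentile scaling, and its groups did not overlap. miR-223 was saturated on all arrays of days 1 and 5 and miR-21 on all 12, so their values there are only lower limits.

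**Figure D4:**
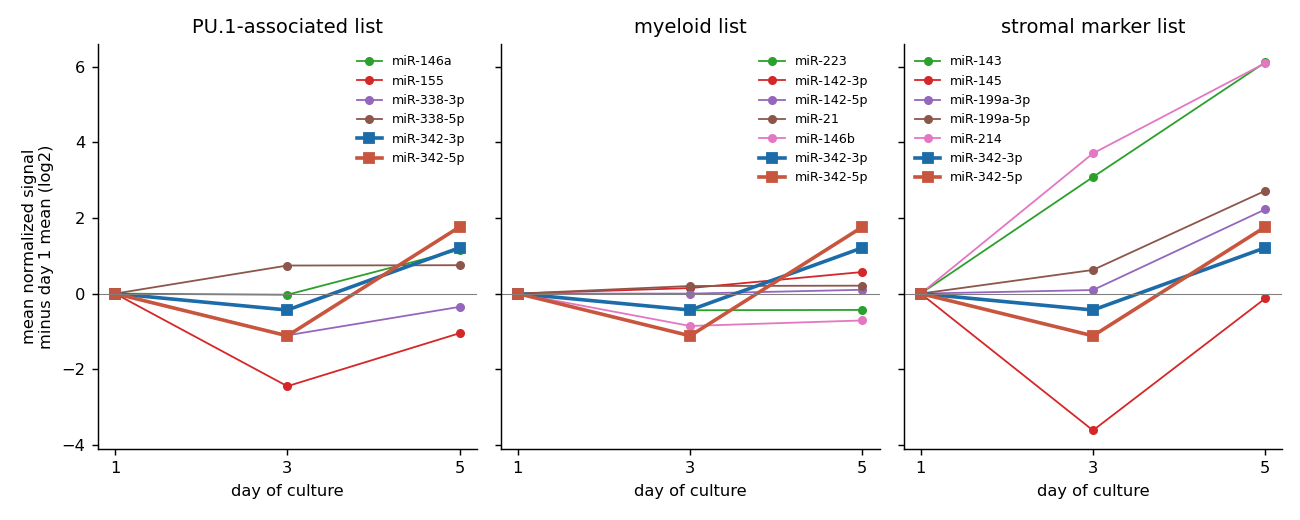
Mean normalized signal of each miRNA at days 1, 3, and 5 minus its own day 1 mean (log2), for the PU.1-associated list (left), the myeloid list (middle), and the stromal marker list (right), with both arms of miR-342 in bold squares in every panel. The 3p arm ends at 1.21 together with miR-146a at 1.16 and below miR-199a-3p at 2.23. miR-223 was saturated on all arrays of days 1 and 5 and miR-21 on all 12, so their lines cannot be ranked.

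Along the chromosome, Mir345 is the only other miRNA gene in the RefSeq table within 500 kb of Mir342, at 178255 bases downstream. Its 5p arm had another course. miR-345-5p rose from 8.46 to 9.66 between days 1 and 3, by 1.20 (limma adjusted p = 0.00023), and differed by 0.05 from day 3 to day 5 (limma adjusted p = 0.90). miR-345-3p was detected on 1 of 12 arrays.

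Markers of other cells in bone marrow were read beside the rise of miR-342. Stromal miRNAs rose with it from day 3 to day 5. Their summed normalized signal ran from 437 to 666 at day 1, from 591 to 669 at day 3, and from 2600 to 3630 at day 5. From day 3 to day 5, 2 of the 5 were called higher, against 5.99% of all miRNAs, miR-199a-3p by 2.13 and miR-199a-5p by 2.09 (limma adjusted p = 4.2e-05 and 1.3e-05). Within slide 1, 4 of the 5 were called higher at day 5 than at day 1, against 24.3%, with a median difference of 2.72 against 0.11. miR-143 and miR-214 were each detected on 3 of 4 arrays of day 5 and on none of day 3, and miR-145 was detected on neither day. At day 1 miR-143 was detected on no array, and miR-214 and miR-145 on 1 each. The calls of miR-143 and miR-214 between days 5 and 1 thus rest on day 1 values mostly below detection. The part of stromal cells in the result was not tested.

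Summed lymphoid and erythroid markers did not rise with miR-342. The sum of 3 lymphoid miRNAs ran from 1840 to 2758 at day 1, 1933 to 2445 at day 3, and 1626 to 2230 at day 5. Among them miR-150, the marker of mature lymphocytes, was detected on all arrays of day 1 and on none later. The other members, miR-181a and miR-181b, went opposite ways from day 1 to day 3. They differed by -0.96 and 0.79 (limma adjusted p = 0.00025 and 0.00039), both under the 2-fold limit. From day 3 to day 5 they differed by 0.16 and -0.34, and from day 1 to day 5 by -0.80 and 0.45. The sum of the 2 erythroid miRNAs analysed here, miR-451 and miR-144, went from 25488 to 38092 at day 1 down to 136 to 268 at day 5, where miR-144 was at the floor. miR-126-3p, a megakaryocytic and endothelial miRNA, was detected at day 1 only, and miR-223, also a granulocytic marker, was saturated as described above.

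The size of each change in miR-342 was recomputed under other ways of processing. For the 3p arm, day 5 stood above day 3 by 1.60 to 2.34 and above day 1 by 0.96 to 1.36, and day 3 stood below day 1 by 0.37 to 1.36. For the 5p arm the difference between days 5 and 3 ran from 0.41 with normexp background correction to 4.51 with a filter on detection in a whole day. The sign of every difference was kept. In the 5p arm, leaving out replicate 2 of day 1 gave 3.77 in place of 2.88 for days 5 and 3, with 316 miRNAs left by the filter.

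**Figure D5:**
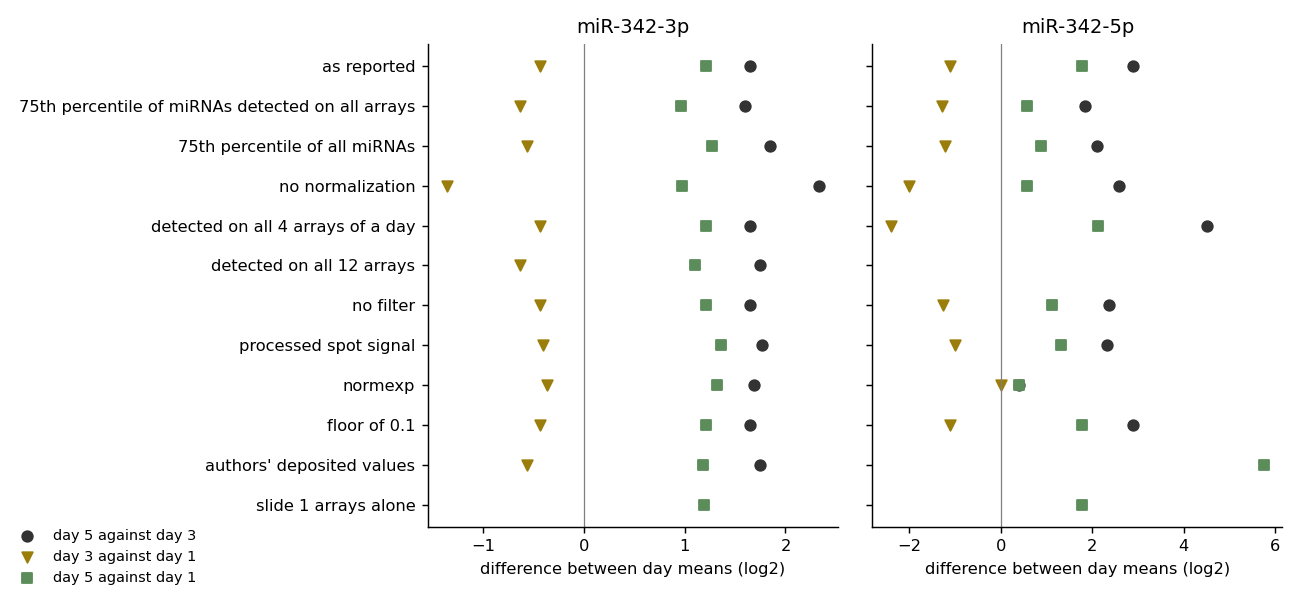
Differences between day means (log2) of the 3p arm (left) and the 5p arm (right) under each way of processing named on the vertical axis, with circles for day 5 against day 3, triangles for day 3 against day 1, and squares for day 5 against day 1. The 3p values stay within a narrow band except without normalization, at 2.34 and -1.36, whereas the 5p values spread from 0.41 to 4.51 for day 5 against day 3 and reach 5.75 for day 5 against day 1 in the deposited values.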

How the data were processed

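RNA of 12 cultures was measured on 12 single-color Agilent miRNA arrays. The scanner files deposited by the authors, written by Feature Extraction 9.5.3.1, hold background-subtracted intensity values that were not normalized between arrays, beside a detection mark for each miRNA. A second, deposited table of log2 values, which the authors had quantile normalized in GeneSpring and left empty for undetected miRNAs, served as an alternative.

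For the 334 miRNAs with detection on 1 or more arrays, total signals were quantile normalized (limma 3.58.1, R 4.3.3), set to a floor of 1 (9.28% of the values), and converted to log2. limma (lmFit, eBayes) was fitted with 1 mean per day on all arrays, and days were compared by contrasts with Benjamini-Hochberg adjustment. The code was tested on simulated data. Samples were grouped by their labels. Both arms, the lists, the marker miRNAs, and the measure of likeness were chosen with earlier results of these data known. The text names the arms, the members of these lists, the miRNA genes within 500 kb, the 5 nearest patterns, and the 3 pairs of arms with the smallest and the 3 with the largest gap. The number of arrays, 4 per day, limits the precision. Tables and figures were made with Python 3.11.15, pandas 2.3.3, numpy 2.4.6, and matplotlib 3.10.9. Alternatives changed the scaling, the filter, the background correction, the floor, the source of the values, the arrays used, and the test.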

Additional observations from a re-analysis of the deposited data

Results flagged for a closer look

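In 9 of 51 groups of 4 arrays, among the members and the miRNAs of the PU.1, myeloid, lymphoid, and neighbour lists detected on a whole day, the highest or lowest array stood apart from the other 3 by Dixon's ratio. Chance gives about 1 such group in 20 for values without ties, and the miRNAs share arrays, so the groups are not independent. In the day 3 groups of miR-223, miR-21, and miR-345-5p the other 3 arrays had the same normalized value. That rate does not hold for such ties, so the count cannot be compared with it. For mmu-miR-342-3p this was replicate 1 of day 5, with a total signal as scanned of 12048 against 10099 to 10233, and not its normalized value. For mmu-miR-342-5p no array stood apart.

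The other groups are given on the normalized log2 scale. For miR-155, replicate 3 of day 3 was at 5.84 (others 5.30 to 5.38) and replicate 4 of day 5 at 6.05 (others 7.04 to 7.21). For miR-345-5p, replicate 2 of day 1 was at 8.12 (others 8.55 to 8.60), replicate 4 of day 3 at 9.90 (others 9.58), and replicate 4 of day 5 at 10.25 (others 9.51 to 9.55). miR-142-5p was at 11.38 on replicate 4 of day 3 (others 11.57 to 11.59), miR-223 at 15.90 on replicate 1 of day 3 (others 15.87), and miR-21 at 16.30 on replicate 3 of day 3 (others 16.34).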

How the results depend on the processing

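Every difference between days in both arms kept its sign under every alternative run, and the cause of each shift was not tested. For the 3p arm, day 5 against day 3 moved from 1.65 to 1.84 with the 75th percentile of all miRNAs and 2.34 without normalization. Its day 3 against day 1 moved from -0.43 to -0.64 with the 75th percentile of miRNAs detected on all arrays, -0.64 with only miRNAs detected on all 12 arrays, and -1.36 without normalization. Its day 5 against day 1 moved from 1.21 to 0.96 with that percentile and 0.97 without normalization. For the 5p arm, day 5 against day 3 moved from 2.88 to 1.85 with the percentile over miRNAs detected on all arrays, 4.51 with a filter on detection on all 4 arrays of a day, and 0.41 with normexp. Its day 3 against day 1 moved from -1.12 to -2.40 with that filter and -0.0054 with normexp. Its day 5 against day 1 moved from 1.76 to 0.56 and 0.87 with the percentiles, 0.57 without normalization, 1.11 without a filter, 0.40 with normexp, and 5.75 in the deposited values, where 3 arrays of day 5 stand against 4 of day 1. The 5p arm has no value with the filter on all 12 arrays, nor for day 3 in the deposited table. Leaving out each array in turn gave 1.56 to 1.71, -0.56 to -0.37, and 1.12 to 1.29 for the 3p arm in the same order of comparisons, and 2.38 to 3.77, -2.02 to -0.59, and 1.50 to 2.06 for the 5p arm. For the 5p arm, day 3 against day 1 was -2.02 without day 1 replicate 2, -1.70 without day 1 replicate 4, -0.59 without day 3 replicate 1, and -0.71 without day 5 replicate 4, and day 5 against day 3 was 3.77 without day 1 replicate 2.

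The number of miRNAs called was 35 for day 5 against day 3, 117 for day 3 against day 1, and 156 for day 5 against day 1. It was 14, 33, and 56 among the 148 miRNAs detected on all arrays, 17, 59, and 101 with normexp, and 16, 56, and 60 with the deposited values. For day 5 against day 3 it was 55 with the methods' analysis of variance and 85 with no limit on the fold, and without normalization 46 were higher and 3 lower, against 20 and 15. Leaving out each array gave 29 to 37, 103 to 127, and 138 to 155. After the mean of its day was subtracted from each miRNA, correlations between same-numbered arrays ran from -0.44 to 0.70, and 7 of 12 were over 0.1. They were not compared with differently numbered arrays, so they cannot decide whether replicate numbers pair the arrays. The replicate block gave 34, 119, and 153 calls. Alternatives chosen after seeing the data were the bound of the 5p arm without replicate 4 of day 5, the bounds of miR-155, and the order of days on other scales. Signal over background limits the 5p arm, which was below detection on 5 arrays.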
